A study of Mus musculus with 12 samples.

Results

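Expression of 9 peptidase genes, *Anpep*, *Enpep*, *Dpp4*, *Mme*, *Ace*, *Lnpep*, *Erap1*, *Npepps* and *Lap3*, was examined in 12 mouse lung tumors. The genes were found by their symbols in the deposited count table, which lists 39017 genes. All 9 were present, and all 9 were among the 16527 genes with enough counts to be tested. The set was chosen by measured values for *Anpep*, which was lower with doxycycline in tumors labelled KP_PPARaDN against KP and in the average of both genotypes. Its doxycycline differences are therefore described without a test. The other 8 were added as peptidases related to it by structure or by location, with results of these data already known.

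Peptidases at the cell surface trim or cut peptides outside the cell, which switches off some peptide hormones, makes others active and releases amino acids for uptake. *Anpep* encodes aminopeptidase N (CD13), which removes neutral amino acids from the N-terminus of peptides, is a zinc enzyme of the M1 family and is abundant on intestinal and renal brush borders and on myeloid cells. Several members act in the renin-angiotensin system, and in the lung *Ace* is best known from the endothelium of capillaries. Not every member is a surface enzyme: the product of *Lnpep* cycles between vesicles and the surface, that of *Erap1* resides in the endoplasmic reticulum, and those of *Npepps* and *Lap3* are mainly cytosolic.

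All 9 mice were of the C57BL/6 strain and carried K-rasLSL-G12D/WT, p53Fl/Fl and CCSP-rtTA, a doxycycline-dependent activator driven by the promoter of a club cell gene, and KPG1 mice carried Glut1Fl/Fl in addition. All received 6000 viral units of Lenti.TRE-PPARaD13_PGK-Cre, a vector for Cre-driven tumor initiation in which PPARαΔ13 (a dominant negative version of the fatty acid sensor PPARα) sits under a promoter that rtTA and doxycycline switch on. Tumors labelled KP and KPG1 came from mice on a regular diet, and those labelled KP_PPARaDN and KPG1_PPARaDN (KP-PPARαΔ13 and KPG1-PPARαΔ13 below) from mice fed 625 mg/kg doxycycline for 15 days. No group received doxycycline without the transgene, so the diet and the induction cannot be told apart. Each group held 3 tumors, taken 26 weeks after initiation, and the RNA came from cells left after depletion of CD45-positive immune cells. By the number in the labels that is read as the mouse, 2 KP, 3 KP-PPARαΔ13, 2 KPG1 and 2 KPG1-PPARαΔ13 mice gave tumors. Replicates 1 and 2 of KP, 1 and 2 of KPG1, and 1 and 3 of KPG1-PPARαΔ13 then shared a mouse, and p-values over tumors treat them as separate. The KP mice were all female and the KPG1 mice all male, and both other groups held mice of both sexes.

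Tumors had 25263794 to 32654223 counts in total. Levels are given in CPM, counts scaled to a common library size by TMM. The genes that the design alters did not follow the labels in every tumor. *Ppara*, which may collect transgene reads, was at 9.54 to 15.7 CPM in KP and at 2.71, 64.6 and 246.1 CPM in KP-PPARαΔ13 replicates 1 to 3. It was at 7.24 to 15.3 CPM in KPG1 and 8.90 to 19.2 CPM in KPG1-PPARαΔ13, which overlapped. *Slc2a1*, the gene of Glut1, overlapped between KP and KPG1 (35.3 to 57.7 and 30.2 to 63.95 CPM). With doxycycline it did not, at 108.1 to 152.5 CPM in KP-PPARαΔ13, above all KP tumors, and 23.7 to 54.55 CPM in KPG1-PPARαΔ13. Groups are named by their labels, and log2 fold changes of the members that use KP-PPARαΔ13 are also given without replicate 1. *Ptprc*, the gene of CD45, was at 31.5 CPM in KP replicate 1 and at most 9.85 CPM in the other tumors. Alveolar type 2 markers were high in every tumor, with a sum of 8 genes from 23790 to 77170 CPM. In these bulk samples, fewer cells of a type and less RNA per cell cannot be told apart.

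The bases before the start of transcription are shown for *Anpep*, the member that led to this set, and for *Enpep*, another M1 aminopeptidase of the cell surface whose groups overlapped. Each run holds the 250 bases upstream of a RefSeq start in GRCm38.p6, written 5′ to 3′ on the minus strand of both genes, with GC boxes (GGGCGG or its reverse complement) in capitals. The *Anpep* window lies at chr7:79848211-79848460, inside the span that GENCODE gives the gene, and that of *Enpep* at chr3:129332750-129332999. Which start the tumors used was not examined for either gene.
Anpep: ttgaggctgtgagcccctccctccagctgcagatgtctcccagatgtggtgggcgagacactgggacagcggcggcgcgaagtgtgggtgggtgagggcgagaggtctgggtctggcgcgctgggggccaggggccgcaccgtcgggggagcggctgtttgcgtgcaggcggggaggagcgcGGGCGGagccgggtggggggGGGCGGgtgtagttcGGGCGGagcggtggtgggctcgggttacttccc
Enpep: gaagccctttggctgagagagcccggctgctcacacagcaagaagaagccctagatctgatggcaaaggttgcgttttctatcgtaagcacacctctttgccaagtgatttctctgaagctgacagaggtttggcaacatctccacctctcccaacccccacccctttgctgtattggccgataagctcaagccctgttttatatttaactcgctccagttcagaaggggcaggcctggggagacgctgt
The *Anpep* window had a GC content of 72.8%, higher than 94.0% of the 32851 windows of all RefSeq starts, and held 3 GC boxes, and neither strand held a CCAAT box or a TATA box (spelled TATAAA). It also lacked AGGTCA, the element whose repeat PPARα bound to RXR recognises, which 14% of all windows hold on either strand. The *Enpep* window had a GC content of 52.4%, near the middle of all windows (49.7% were lower), and held no GC box. It held 1 match to the TATA box and 1 to the CCAAT box, both as the reverse complement in the run shown. Among all windows, 32.7% hold a GC box, 12.4% a TATA box and 33.8% a CCAAT box on either strand. GC boxes were also found before *Npepps* (6), *Lnpep* (4), *Lap3* (4), a start of *Ace* (4) and the starts of *Mme*. These genes overlapped between the diets, as did *Dpp4* and *Erap1*, whose windows held no GC box. All 9 members had a window, and among them AGGTCA was found before 1 start of *Ace* alone, the start inside the gene at chr11:105974939-105975188. The repeat of this element with 1 base between (AGGTCANAGGTCA) was in none of these windows and in 0.0335% of all windows.

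*Anpep* (ENSMUSG00000039062; mm10 chromosome 7, 79821803 to 79861059, minus strand) was lower in every tumor of mice fed doxycycline than in any tumor of mice on the regular diet. It was at 52.3, 77.1 and 46.1 CPM in KP replicates 1 to 3 and at 8.36, 10.7 and 12.1 CPM in KP-PPARαΔ13. In KPG1 it was at 31.6, 23.4 and 31.9 CPM, and in KPG1-PPARαΔ13 at 11.7, 12.7 and 15.5 CPM. Thus the highest tumor with doxycycline, at 15.5 CPM, lay below the lowest without it, at 23.4 CPM. Group means were 58.5 ± 16.4 CPM for KP, 10.4 ± 1.88 CPM for KP-PPARαΔ13, 29.0 ± 4.79 CPM for KPG1 and 13.3 ± 1.98 CPM for KPG1-PPARαΔ13 (n = 3 tumors each, SD).

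The log2 fold change of *Anpep* with doxycycline was -2.50 in KP (SE 0.262, a 5.64-fold lower level), -1.12 in KPG1 (SE 0.251, 2.18-fold lower) and -1.81 averaged over the genotypes (SE 0.181, 3.50-fold lower), from the edgeR fit over all 12 tumors. The difference between the genotypes in this log2 fold change was 1.37 (SE 0.352). Without KP-PPARαΔ13 replicate 1, the value was -2.36 in KP, -1.74 averaged over the genotypes and 1.24 for the difference. As background, 1108 genes (6.7% of those tested) were lower without overlap in KP-PPARαΔ13 against KP, 1556 (9.41%) in KPG1-PPARαΔ13 against KPG1, and 37 (0.224%) over all 12 tumors. With edgeR's quasi-likelihood test and a threshold of 0.05 on the adjusted p, 1 gene (0.00605%) of all tested passed in KP-PPARαΔ13 against KP and 3 genes (0.0182%) in the average. Both contrasts chose *Anpep*, so nothing is read from its place in these counts. The count in KP was 0 when KP replicate 1 or any of the KP-PPARαΔ13 tumors was left out, with tumors of a mouse summed, with sex as a covariate, with the compared groups alone and with the replicate block.

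**Figure D1:**
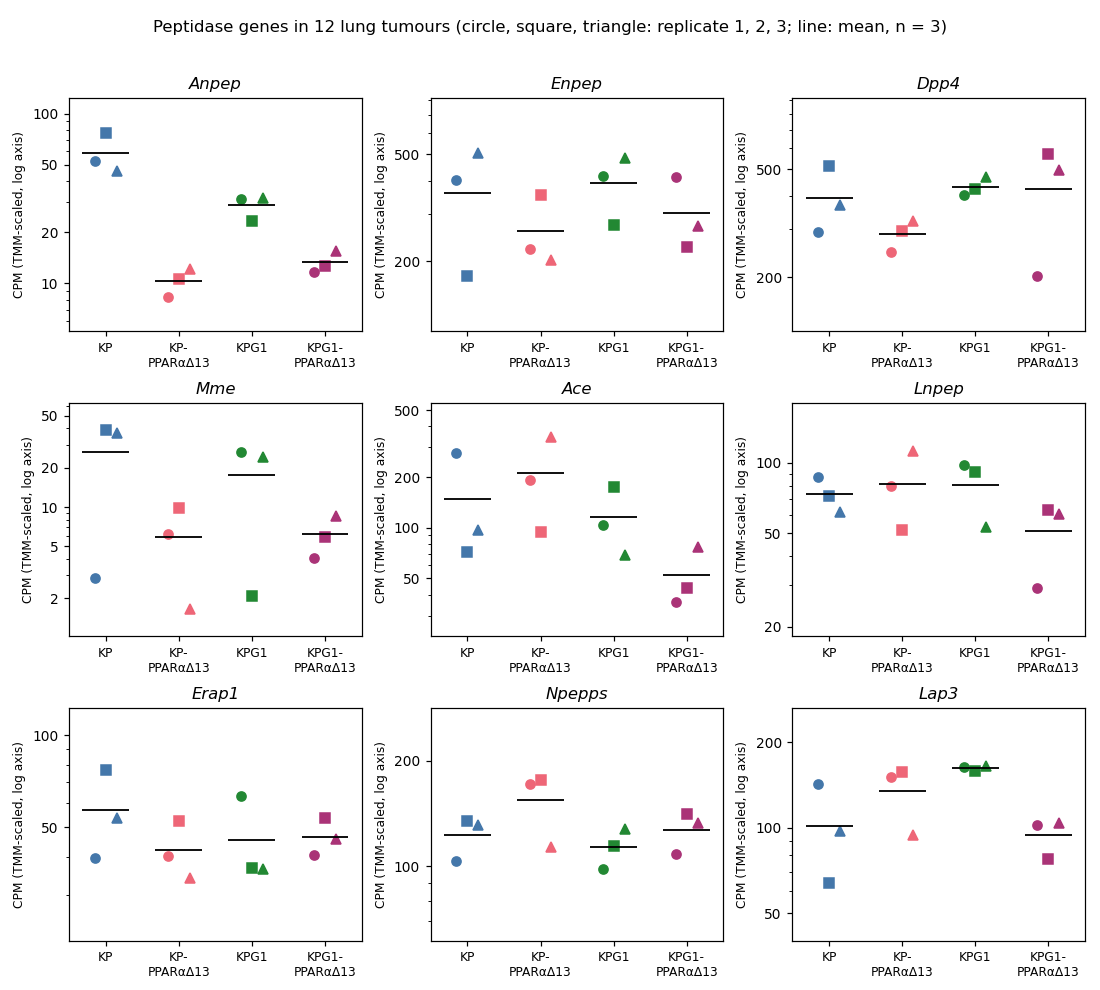
Level of each of the 9 genes (CPM after TMM scaling, log axis) in the 12 tumors by group; circle, square and triangle are replicates 1, 2 and 3 and the line is the mean of 3 tumors. *Anpep* is at 8.36 to 15.5 CPM in the 6 tumors with doxycycline and 23.4 to 77.1 CPM in the 6 without, and the other 8 genes overlap between the diets.

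Between the genotypes on a regular diet, *Anpep* was at 23.4 to 31.9 CPM in the KPG1 tumors and 46.1 to 77.1 CPM in the KP tumors, with no overlap. The log2 fold change was -1.01 (SE 0.250, unadjusted p = 0.00174, adjusted p = 0.785 by edgeR), so the difference did not pass after adjustment. DESeq2 gave -1.003 with an adjusted p of 0.0495, and the value ran from -1.16 to -0.76 as each tumor was left out. This comparison uses the same KP tumors as the doxycycline comparison that chose the gene. In KPG1 against KP, 848 genes (5.13%) were lower without overlap and 6 genes (0.0363%) passed. Sex differed completely between these groups, so that within them sex and genotype cannot be told apart, and with sex as a covariate the log2 fold change was -0.93 (SE 0.379). With doxycycline, *Anpep* was at 11.7 to 15.5 CPM in KPG1-PPARαΔ13 and 8.36 to 12.1 CPM in KP-PPARαΔ13, which overlapped, with a log2 fold change of 0.36 (95% interval -0.19 to 0.90, adjusted p = 0.634 from edgeR). Without KP-PPARαΔ13 replicate 1 it was 0.23. The tumors of this comparison also took part in choosing the gene. The p-values and the interval of *Anpep* between the genotypes are therefore not read as tests.

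Some cell type markers moved with the groups in which *Anpep* differed. None of the sums of the 9 marker lists separated the 6 tumors with doxycycline from the 6 without. Within KP, the fibroblast sum (8 genes) was 133.0 to 241.9 CPM without and 266.6 to 529.6 CPM with doxycycline, and the mesothelial sum (4 genes) 2.94 to 43.1 and 158.8 to 294.6 CPM. The erythroid sum (5 genes) was 319.1 to 764.7 CPM and 849.9 to 1320.0 CPM in the same groups. Of the fibroblast markers tested, 5 of 7 were higher, of the mesothelial 3 of 3 and of the erythroid 4 of 5, with 0 past an adjusted p of 0.05 in this comparison. An unadjusted p under 0.05 from edgeR was found for 4 of 7, 1 of 3 and 4 of 5, against 11.4% of all genes. In the average, 4 of 5 erythroid markers were higher and 4 of 5 had an unadjusted p under 0.05 (10.1% of all genes). The alpha globin gene *Hba-a2* passed there (log2 fold change 4.62, adjusted p = 0.00429 from edgeR). *Hba-a2* was at 13.1 to 26.2 CPM in KP and 34.4 to 75.1 CPM in KP-PPARαΔ13. It was at 0.103 to 0.529 CPM in KPG1 and 29.1 to 122.0 CPM in KPG1-PPARαΔ13. It was the 1 gene that passed in KPG1-PPARαΔ13 against KPG1, and it also passed, as lower, in KPG1 against KP, where 6 genes (0.0363%) did. Its split of reads from the near-identical *Hba-a1* is uncertain. Within KPG1, the alveolar type 2 sum (8 genes) was 47920 to 77170 CPM without and 25480 to 40640 CPM with doxycycline, and the alveolar type 1 sum (6 genes) 1707 to 2386 and 643.0 to 1061 CPM, with all 8 and all 6 genes lower and 0 past the threshold. An unadjusted p under 0.05 was found for 3 of 8 and 0 of 6 (10.8% of all genes). Within KP, 7 of 8 alveolar type 2 markers were lower (median log2 fold change -0.438) and 6 of 6 alveolar type 1 markers higher (median 0.467). There 0 of either list had an unadjusted p under 0.05 from edgeR. In the average, 8 of 8 alveolar type 2 markers were lower (median -0.715), 4 with an unadjusted p under 0.05 (10.1% of all genes). The 8 endothelial markers were lower there too (median -0.267), 0 with one. In KPG1 against KP, the sum of 6 club and ciliated markers was 166.1 to 400.9 against 85.8 to 136.4 CPM, with 3 of 6 higher. Leukocyte sums (10 genes) overlapped in both doxycycline comparisons, at 14.4 to 82.3 CPM over all tumors. In KPG1 against KP they overlapped too, at 22.8 to 29.8 against 20.7 to 82.3 CPM. Of the leukocyte markers tested there, 7 of 7 were lower (median log2 fold change -0.73), 0 of them with an unadjusted p under 0.05 from edgeR. Averaged over the diets, 7 of 7 were again lower in KPG1 (median -1.04). Of the markers in all 9 lists, *Wt1* (mesothelial) was at 0 in all KPG1-PPARαΔ13 tumors and *Ly6g* (leukocyte) in all KP tumors, and no other was at 0 throughout a group. The part of these cell types in the *Anpep* values was not tested.

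*Enpep* (ENSMUSG00000028024; chromosome 3, 129269175 to 129332720, minus strand) encodes aminopeptidase A, which removes acidic residues and turns angiotensin II into angiotensin III. It was at 401, 176 and 506 CPM in KP tumors, 222, 353 and 203 CPM in KP-PPARαΔ13 tumors, 414.5, 272 and 486 CPM in KPG1 tumors and 413, 226 and 272 CPM in KPG1-PPARαΔ13 tumors. Both pairs of groups overlapped, and the lowest of all 12 tumors was a KP tumor. The log2 fold change with doxycycline was -0.48 in KP (SE 0.393, adjusted p = 0.698 by edgeR) and -0.37 in KPG1 (SE 0.392, adjusted p = 0.755). Averaged over the genotypes it was -0.42 with a 95% interval of -1.03 to 0.19.

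*Ace* (ENSMUSG00000020681; chromosome 11, 105967945 to 105989964, plus strand) encodes angiotensin-converting enzyme, which makes angiotensin II and inactivates bradykinin. It was at 277, 71.9 and 96.4 CPM in KP tumors, 193, 94.3 and 345 CPM in KP-PPARαΔ13 tumors, 104, 174 and 68.8 CPM in KPG1 tumors and 36.4, 43.8 and 77.1 CPM in KPG1-PPARαΔ13 tumors. The KPG1-PPARαΔ13 tumors lay below all KP-PPARαΔ13 tumors but overlapped with KPG1 tumors. Between these genotypes with doxycycline the log2 fold change was -2.005 (SE 0.600, unadjusted p = 0.00624, adjusted p = 0.462 from edgeR), and -2.06 without KP-PPARαΔ13 replicate 1. Here 1199 genes (7.25%) were lower without overlap, 5 genes (0.0303%) passed, and DESeq2 gave *Ace* an adjusted p of 0.0522. The log2 fold change with doxycycline was 0.50 in KP (SE 0.579, adjusted p = 0.811) and -1.14 in KPG1 (SE 0.586, adjusted p = 0.514), and their difference was -1.65 (SE 0.823, unadjusted p = 0.0696, adjusted p = 0.452 from edgeR). This difference ran from -2.47 without KP replicate 1 to -1.095 without KP-PPARαΔ13 replicate 3, and was -0.74 with sex as a covariate. In KP the sign turned to -0.05 without KP-PPARαΔ13 replicate 3, the tumor with the highest *Ace*, and the value was 1.32 without KP replicate 1, when the average of -0.32 turned to 0.089.

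Vascular and alveolar markers are given beside *Ace* because of its known site in the lung. The endothelial sum (8 genes) ranged over 151.4 to 838.2 CPM with doxycycline in KP and 174.2 to 272.2 CPM in KPG1, with all 8 genes lower in the latter, 0 past the threshold and none at 0. Other sums did not overlap there: alveolar type 1 (1452 to 2825 against 643.0 to 1061 CPM), fibroblast (266.6 to 529.6 against 128.2 to 184.1 CPM) and mesothelial (158.8 to 294.6 against 6.69 to 61.8 CPM). The ratio of *Ace* to *Pecam1*, an endothelial adhesion gene, was 7.45, 1.89 and 2.19 in KP-PPARαΔ13 and 0.632, 1.19 and 1.44 in KPG1-PPARαΔ13. On the regular diet it was 3.17, 1.78 and 1.16 in KP and 0.991, 5.18 and 0.805 in KPG1, so it varied widely within groups. Over all 12 tumors that ratio ran from 0.632 to 7.45. The part of these cell types in the *Ace* values was not tested. Reads of *Gm11651*, an antisense gene that overlaps *Ace* exons on the opposite strand, could add to the count, since the strand setting of the counting is not given in the sources used here.

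*Mme* (ENSMUSG00000027820; chromosome 3, 63241537 to 63386030, plus strand) encodes neprilysin (CD10), which degrades enkephalins, tachykinins and natriuretic peptides. It was at 2.88, 39.2 and 37.2 CPM in KP tumors, 6.20, 9.88 and 1.64 CPM in KP-PPARαΔ13 tumors, 26.4, 2.07 and 24.1 CPM in KPG1 tumors and 4.06, 5.86 and 8.56 CPM in KPG1-PPARαΔ13 tumors. In each regular-diet group 2 tumors stood above every doxycycline tumor and 1 stood among the lowest. Averaged over the genotypes the log2 fold change with doxycycline was -1.83 (SE 0.705, unadjusted p = 0.0240, adjusted p = 0.419 from edgeR), which did not pass. It was -2.16 in KP (SE 1.01, adjusted p = 0.451) and -1.51 in KPG1 (SE 0.988, adjusted p = 0.605). As each tumor was left out, these ran from -2.75 to -1.72 and from -2.07 to -1.09, and voom gave -0.86 in KPG1. In KP and in KPG1 the low tumor came from the same mouse as a high one, with a 13.6-fold and a 12.8-fold difference between them.

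*Dpp4* (ENSMUSG00000035000; chromosome 2, 62330073 to 62412231, minus strand) encodes dipeptidyl peptidase 4 (CD26), a serine peptidase that inactivates incretins and several chemokines. It was at 295, 513 and 368 CPM in KP tumors, 247, 295 and 322 CPM in KP-PPARαΔ13 tumors, 403, 424 and 469 CPM in KPG1 tumors and 202, 571 and 497 CPM in KPG1-PPARαΔ13 tumors. The lowest and the highest of all tumors were both KPG1-PPARαΔ13 tumors. The log2 fold change with doxycycline was -0.44 in KP (SE 0.336, adjusted p = 0.664 from edgeR) and -0.03 in KPG1 (SE 0.336, adjusted p = 0.985, 95% interval -0.76 to 0.71). An antisense gene, *Gm13561*, overlaps its exons on the opposite strand.

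For the enzymes found inside the cell, KP and KP-PPARαΔ13 tumors overlapped in each case. *Lnpep* (ENSMUSG00000023845; chromosome 17, 17521410 to 17625050, minus strand) encodes insulin-regulated aminopeptidase, which also cleaves oxytocin and vasopressin. It was at 87.1, 72.2 and 61.9 CPM in KP tumors, 79.4, 51.8 and 113 CPM in KP-PPARαΔ13 tumors, 97.8, 91.4 and 53.1 CPM in KPG1 tumors and 29.2, 63.0 and 60.8 CPM in KPG1-PPARαΔ13 tumors. All groups overlapped, and the log2 fold change was 0.14 in KP (SE 0.356, adjusted p = 0.927 from edgeR) and -0.66 in KPG1 (SE 0.358, adjusted p = 0.531). In KP the value was -0.17 without KP-PPARαΔ13 replicate 3.

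*Erap1* (ENSMUSG00000021583; chromosome 13, 74639568 to 74693201, plus strand) trims peptides in the endoplasmic reticulum for loading onto MHC class I. It was at 39.6, 76.9 and 53.6 CPM in KP tumors, 40.3, 52.2 and 34.0 CPM in KP-PPARαΔ13 tumors, 63.1, 36.7 and 36.5 CPM in KPG1 tumors and 40.4, 53.7 and 45.7 CPM in KPG1-PPARαΔ13 tumors. The groups overlapped throughout, with a log2 fold change with doxycycline of -0.43 in KP (SE 0.297, adjusted p = 0.630 from edgeR) and 0.04 in KPG1 (SE 0.297, adjusted p = 0.977). Its exons overlap those of *Cast*, a protein-coding gene on the opposite strand.

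*Npepps* (ENSMUSG00000001441; chromosome 11, 97205842 to 97280638, minus strand) encodes the puromycin-sensitive aminopeptidase, which trims peptides released by the proteasome. It was at 103.5, 134.9 and 131 CPM in KP tumors, 172, 177 and 114 CPM in KP-PPARαΔ13 tumors, 98.5, 115 and 128 CPM in KPG1 tumors and 108, 141 and 133 CPM in KPG1-PPARαΔ13 tumors. It was the only member with a positive average difference, a log2 fold change of 0.24 (SE 0.148, 95% interval -0.08 to 0.57, adjusted p = 0.621 from edgeR). The groups overlapped, and the value was 0.32 in KP (SE 0.209, adjusted p = 0.602) and 0.16 in KPG1 (SE 0.209, adjusted p = 0.801). An antisense gene on the opposite strand, *Gm11592*, overlaps its exons.

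*Lap3* (ENSMUSG00000039682; chromosome 5, 45493374 to 45512691, plus strand) encodes leucine aminopeptidase 3, a metallopeptidase of the M17 family. It was at 142, 64.2 and 97.45 CPM in KP tumors, 151, 158 and 94.6 CPM in KP-PPARαΔ13 tumors, 163, 159 and 166 CPM in KPG1 tumors and 103, 77.5 and 104 CPM in KPG1-PPARαΔ13 tumors. The KPG1 tumors lay within 1.04-fold of each other, above every KP and every KPG1-PPARαΔ13 tumor. The log2 fold change with doxycycline was -0.78 in KPG1 (SE 0.282, unadjusted p = 0.0181, adjusted p = 0.420 from edgeR) and 0.41 in KP (SE 0.281, adjusted p = 0.625). In KPG1, 1777 genes (10.8%) had an unadjusted p under 0.05 and 1 gene (0.00605%) passed after adjustment. The difference between the genotypes was -1.19 (SE 0.398, unadjusted p = 0.0121, adjusted p = 0.351 from edgeR), in a test in which 0 genes passed, 286 passed by DESeq2 and 1952 (11.8%) had an unadjusted p under 0.05. KPG1 against KP gave 0.68 (SE 0.282, unadjusted p = 0.0334, adjusted p = 0.787), and 796 genes (4.82%) were higher there without overlap. Sex differed completely between these groups, and KPG1 replicates 1 and 2 shared a mouse. With sex as a covariate, the log2 fold change of *Lap3* with doxycycline was -1.05 in KPG1 and 0.66 in KP. Over all alternatives, KPG1 against KP ran from 0.44 to 1.07 and the difference between the genotypes from -1.71 to -0.94. The alveolar sums given above were also lower in KPG1-PPARαΔ13 than in KPG1, and their part in the *Lap3* values was not tested.

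**Figure D2:**
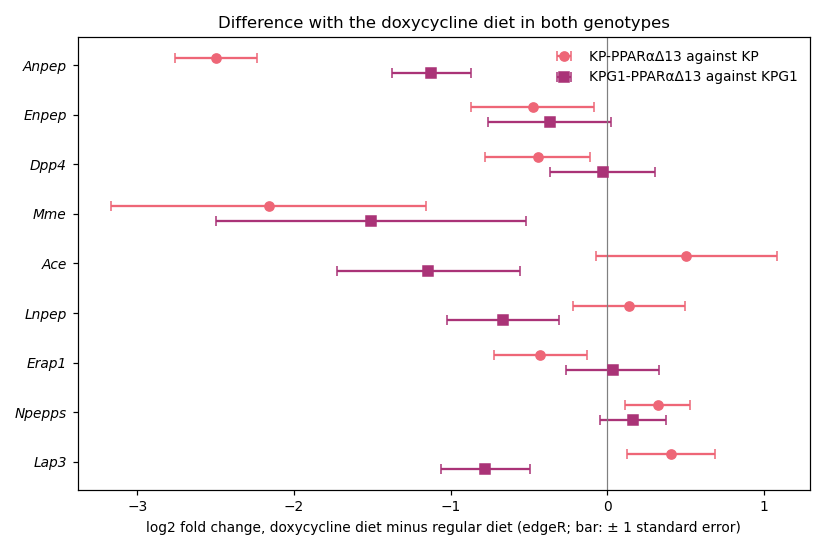
Log2 fold change of each of the 9 genes with doxycycline (horizontal axis) in KP (circles) and KPG1 (squares), with bars of 1 standard error from edgeR. *Anpep* is at -2.50 and -1.12, and *Ace*, *Lnpep* and *Lap3* lie above 0 in KP and below 0 in KPG1, none of them past an adjusted p of 0.05.

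Over the 9 genes, the average doxycycline difference was negative for 8, with a median log2 fold change of -0.26, and 0 of the 8 members other than *Anpep* passed the test in the 7 comparisons. Among all 16527 genes, 8086 were lower and the median was 0.01. In KP, 5 of the 9 were lower with a median of -0.43 (-0.01 over all genes), and in KPG1, 7 of the 9 with a median of -0.66 (0.02 over all genes). *Anpep* is counted in each of these, although it was chosen for its direction. Apart from *Anpep*, 0 of 8 members had an unadjusted p under 0.05 in KP (11.4% of all genes had one), 1 of 8 in KPG1 (*Lap3*; 10.8%) and 1 of 8 in the average (*Mme*; 10.1%). *Anpep* is left out of the next counts too, because tumors that chose it are in both comparisons. In KPG1 against KP, 1 of 8 had one (*Lap3*; 6.23% of all genes), and in KPG1-PPARαΔ13 against KP-PPARαΔ13 1 of 8 (*Ace*; 9.69%). In the genotype difference averaged over the diets it was again *Ace* (4.53%), and 8 genes (0.0484%), none of them a member, passed after adjustment. With KP-PPARαΔ13 replicate 1 left out, the average was again negative for *Enpep* (-0.37), *Dpp4* (-0.19), *Mme* (-1.85), *Ace* (-0.29), *Lnpep* (-0.25), *Erap1* (-0.18) and *Lap3* (-0.23), and positive for *Npepps* (0.20). The KP differences without that tumor were -0.38 for *Enpep*, -0.35 for *Dpp4*, -2.20 for *Mme*, 0.56 for *Ace*, 0.16 for *Lnpep*, -0.39 for *Erap1*, 0.24 for *Npepps* and 0.32 for *Lap3*. The differences between the genotypes were then -1.71 for *Ace* and -1.095 for *Lap3*.

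Levels per exon length placed the surface enzymes both at the top and at the bottom of the order. Mean values over 12 tumors, in CPM per kilobase of exon, were 69.8 for *Enpep*, 60.7 for *Dpp4*, 39.8 for *Lap3*, 24.9 for *Ace* and 18.0 for *Npepps*. They were 6.72 for *Anpep*, 6.56 for *Erap1*, 5.07 for *Lnpep* and 1.21 for *Mme*. Between neighbors in this order, the log2 difference within a tumor exceeded its SD over tumors at 2 steps. *Npepps* lay above *Anpep* in 12 of 12 tumors (1.75 ± 1.18, SD of the log2 difference, n = 12), and *Lnpep* above *Mme* in 12 of 12 (2.73 ± 1.78). *Anpep* ranked from 5 to 8 among the 9 in single tumors, *Ace* from 1 to 6, and *Mme* was at rank 9 in all.

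**Figure D3:**
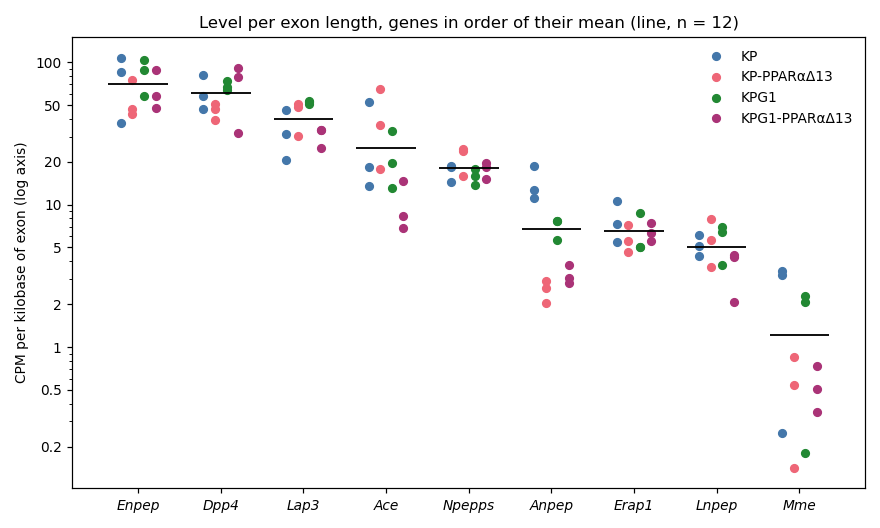
Level of the 9 genes in CPM per kilobase of exon (log axis), with 1 point per tumor colored by group and the mean of 12 tumors as a line. *Enpep* has the highest mean, 69.8, and *Mme* the lowest, 1.21, and the 6 lowest *Anpep* points are the tumors with doxycycline.

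The members differed in how far tumors of a group varied. The SD of log2 CPM within groups was 0.286 for *Anpep*, 0.248 for *Npepps* and 0.373 for *Lap3*, against a median of 0.384 over 14109 genes with at least 1 CPM. It was 0.551 for *Enpep*, 0.82 for *Ace* and 1.65 for *Mme*, and 97.3% of genes had a smaller SD than *Mme*. *Anpep* differed by 1.33-fold to 1.47-fold between tumors of the same mouse. The comparisons that chose *Anpep* favor genes with a small spread within groups. Its SD and its same-mouse differences are therefore a description alone. *Ace* differed 3.85-fold between the KP tumors that shared a mouse, and *Dpp4* 2.46-fold between such KPG1-PPARαΔ13 tumors.

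The 5 genes of at least 1 CPM whose log2 CPM followed *Anpep* most closely over the 12 tumors were *Slc16a6* (Pearson r = 0.93), *Ddhd1* (0.91), *Taok2* (0.90), *Mthfd1* (0.90) and *Gjb6* (0.89). All share the libraries and the doxycycline contrast with *Anpep*, and the correlations are a description. Within the 6 tumors on the regular diet r was 0.878 for *Slc16a6*, 0.802 for *Taok2*, 0.667 for *Mthfd1*, 0.538 for *Ddhd1* and 0.446 for *Gjb6*. Within the 6 with doxycycline it was 0.741, 0.782, 0.378, 0.727 and 0.653 in the same order. *Slc16a6* is a transporter of the monocarboxylate family, *Ddhd1* a phospholipase, *Taok2* a protein kinase, *Mthfd1* a folate enzyme and *Gjb6* a gap junction protein. *Mthfd1* was at 234.0 to 314.1 CPM on the regular diet and 128.0 to 194.2 CPM with doxycycline, a log2 fold change of -0.70. *Gjb6* was at 17.3 to 53.7 and 3.21 to 11.8 CPM, a log2 fold change of -2.20. Neither of these overlapped between the diets, nor did *Taok2* or *Ddhd1* (39.3 to 60.1 and 24.5 to 37.3 CPM). The 5 genes were picked for likeness to *Anpep*, which separated the diets, so nothing is read from this. Over all genes tested, 37 (0.224%) were lower without overlap. The shift of *Taok2* was the smallest of the 5, -0.44, with 108.5 to 147.0 CPM on the regular diet and 74.4 to 106.2 CPM with doxycycline. *Slc16a6* overlapped between the diets, at 20.1 to 36.8 and 15.9 to 22.7 CPM. Among the other members, *Mme* had the highest r with *Anpep*, 0.524, and *Npepps* the lowest, -0.416.

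**Figure D4:**
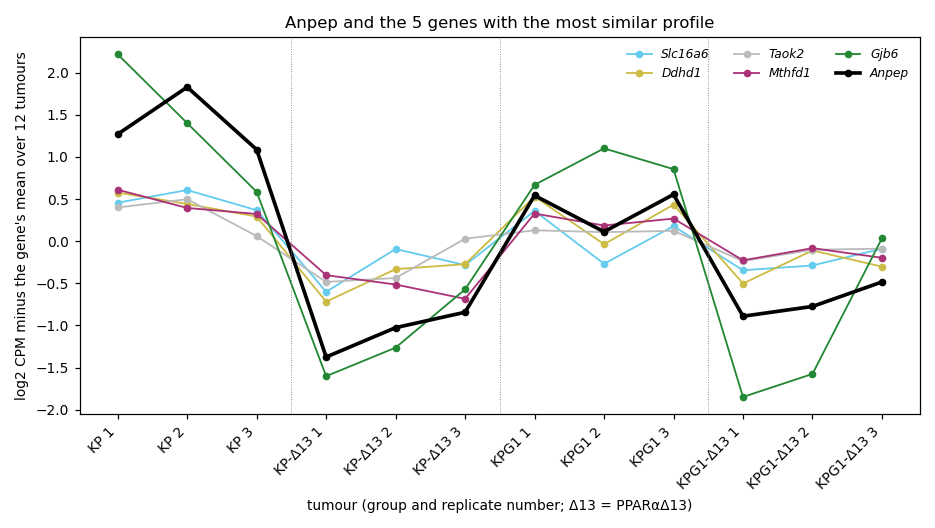
Log2 CPM of *Anpep* (thick line) and of the 5 genes most correlated with it, each minus its own mean over 12 tumors, by tumor in the order of the groups; lines join tumors only to guide the eye. *Gjb6* and *Anpep* span the widest ranges, while *Slc16a6*, *Ddhd1*, *Taok2* and *Mthfd1* move by less than 1 log2 unit either way.

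Other peptidases and peptide systems were read from lists, and in all 7 comparisons 0 genes of these 5 lists passed an adjusted p of 0.05 from edgeR. Of 17 other membrane peptidases tested, 11 were higher and 6 lower in the average doxycycline difference (median log2 fold change 0.18, against 0.01 over all genes), 4 of them with an unadjusted p under 0.05, as 10.1% of all genes had. The largest values belonged to *Dpep1* (-2.95), a membrane dipeptidase, *Naalad2* (-2.06) and *Dpep3* (1.25). *Dpep1* and *Naalad2* rested on KP replicate 1, at 24.8 and 24.3 CPM, against at most 1.82 and 0.76 CPM in the other tumors.

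Of 25 other intracellular peptidases, 11 were higher and 14 lower in the average (median -0.003), 2 with an unadjusted p under 0.05 (10.1% of all genes). *Dpp9*, a cytosolic relative of *Dpp4*, was at 268.0 to 402.9 CPM on the regular diet and 116.5 to 282.5 CPM with doxycycline. Only KP-PPARαΔ13 replicate 3, at 282.5 CPM, exceeded the lowest regular-diet tumor, and the log2 fold change was -0.78 (SE 0.182, unadjusted p = 0.00125, adjusted p = 0.225 from edgeR). *Thop1* and *Nln*, oligopeptidases that cut short neuropeptides, had log2 fold changes of 0.65 (adjusted p = 0.346 from edgeR) and 0.44 (adjusted p = 0.600).

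Of 17 genes of peptide hormone systems tested, which include the angiotensin, bradykinin, endothelin and natriuretic peptide genes, 6 were higher and 11 lower in the average (median -0.23). An unadjusted p under 0.05 was found for 2 (10.1% of all genes). *Npr1*, a receptor of natriuretic peptides, had a log2 fold change of -1.02 (SE 0.446, adjusted p = 0.476 from edgeR), *Edn1* of endothelin one of 0.60 (adjusted p = 0.721) and its receptor *Ednrb* one of -0.56 (adjusted p = 0.802). *Npr1* was at 67.1 to 135.0 CPM on the regular diet and 14.7 to 103.1 CPM with doxycycline, which overlapped.

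Of 15 genes of class I peptide loading, the pathway served by *Erap1*, 12 were lower in the average (median -0.34). Of the 15, 5 had an unadjusted p under 0.05 there (10.1% of all genes). In KPG1-PPARαΔ13, 14 of 15 were lower than in KPG1 (median -0.90) and 15 of 15 lower than in KP-PPARαΔ13 (median -1.03), while *Erap1* had the values given above. An unadjusted p under 0.05 was found for 7 of 15 (10.8% of all genes) and 4 of 15 (9.69%) in these comparisons. Averaged log2 fold changes were -1.63 for *Psmb9* of the immunoproteasome (SE 0.516, adjusted p = 0.344 from edgeR), -1.46 for *B2m* (SE 0.567, adjusted p = 0.427) and -1.21 for *H2-K1* (SE 0.584, adjusted p = 0.524). KP replicate 1 was the highest tumor for all of these, with 1112 CPM of *B2m* against 74.3 to 667.8 CPM in the others, and it was also the highest for *Ptprc*. The part of leukocytes in these values was not tested.

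Of 15 genes of brush borders and their peptide and amino acid uptake, 8 were higher and 7 lower in the average (median 0.21). An unadjusted p under 0.05 was found for 3 (10.1% of all genes). *Lrp2*, the endocytic receptor megalin, had a log2 fold change of -1.26 (SE 0.525, adjusted p = 0.454 from edgeR) and *Slc15a2*, a peptide transporter, of -0.90 (SE 0.381, adjusted p = 0.456). *Cdhr2*, a cadherin of microvilli, had one of 1.04 (SE 0.431, adjusted p = 0.452).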

How the data were processed

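Poly(A) RNA of CD45-negative cells from 12 lung tumors was sequenced with a stranded kit. The authors deposited raw read counts, without normalization, in a file per tumor and in 1 table, and all 12 files held the values of the table. The submitters' processing notes name bcl2fastq 2.17, cutadapt 1.4.2, HISAT2, featureCounts 1.4.4, edgeR and the build mm10; the annotation and strand setting of the counting are not given in the sources used here. Of 39017 genes, 13548 had no count. Columns of samples outside the series numbered 0. A deposited table of log2 values was not used.

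Groups were compared on the counts by edgeR 4.0.16 in R 4.3.3 (filterByExpr by group, TMM scaling, glmQLFit and glmQLFTest), with 12 tumors in one fit, Benjamini-Hochberg adjustment over the 16527 genes tested and a threshold of 0.05. The fit had 8 residual degrees of freedom and a biological coefficient of variation of 0.44. SE was taken from the fold change and the F statistic, and intervals are 95%. Log2 CPM used a prior count of 2. Groups came from the labels. At 25263794 to 32654223 counts per tumor, precision was set by the variation among tumors rather than by depth for all members.

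The members, lists and markers were chosen with earlier results of these data known. Genes named are all members, up to 3 genes a list of at least 1 CPM with the largest average doxycycline difference, and the 5 genes most correlated with *Anpep*. *Ppara*, *Slc2a1* and *Ptprc* checked the labels, and *Pecam1* and *Hba-a2* were added after their values were seen. *Aopep* of the lists was not matched. Gene positions and exon lengths are from GENCODE M21, which held 96.4% of the gene identifiers, and upstream bases from RefSeq on GRCm38.p6. Scripts were tested on simulated data. Alternatives were DESeq2 1.42.0, limma 3.58.1 voom, upper-quartile scaling, no filter, a mean of at least 20 TPM, the compared groups alone, a block for the replicate number, a covariate for sex, tumors of a mouse summed, and leaving out each tumor.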

Additional observations from a re-analysis of the deposited data

How the results depend on the processing

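The alternatives were read for 35 log2 fold changes of the 9 genes, not for every gene in every comparison. The genotype difference averaged over the diets was not among them. Of the 716 recomputed values, 704 kept their sign. Among these 716 values, the 8 genes other than *Anpep* had no adjusted p under 0.05. *Anpep* with doxycycline ran from -2.64 to -2.25 in KP, -1.29 to -1.04 in KPG1 and -1.88 to -1.69 in the average. The cause of the 12 changes of sign was not tested. With sex as a covariate they were -0.37 (*Lnpep*, KP), 0.16 (*Dpp4*, KPG1) and -0.015 (*Erap1*, KPG1), and with tumors of a mouse summed 0.069 (*Dpp4*, KPG1). As each tumor was left out, the doxycycline difference ran from -0.049 to 1.32 for *Ace* and -0.17 to 0.38 for *Lnpep* in KP, from -0.31 to 0.31 for *Dpp4* and -0.13 to 0.34 for *Erap1* in KPG1, and from -0.60 to 0.089 for *Ace* in the average.

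Counts of genes past the threshold depended on the tool. DESeq2 called 372 genes in KP-PPARαΔ13 against KP (1 by edgeR), 211 in KPG1-PPARαΔ13 against KPG1 (1), 60 in KPG1 against KP (6), 155 in KPG1-PPARαΔ13 against KP-PPARαΔ13 (5), 288 in the average doxycycline difference (3), 39 in the average genotype difference (8) and 286 in the difference between genotypes (0). In the same order, without the last, leaving out each tumor gave 0 to 1, 0 to 2, 2 to 6, 2 to 10, 2 to 13 and 6 to 11, and 0 for the last. The 13 arose without KP-PPARαΔ13 replicate 3. In KP-PPARαΔ13 against KP no filter gave 2, and 0 passed with the compared groups alone, with sex and with tumors of a mouse summed. In KPG1-PPARαΔ13 against KPG1, voom, the groups alone and summed tumors gave 0. KPG1 against KP had 10 with the groups alone, 2 with sex and 2 with summed tumors, and the genotype comparison with doxycycline 2 and 2 for the latter pair. No filter gave 5 in the average doxycycline difference, and the average genotype difference had 4 with a mean of at least 20 TPM and 3 with summed tumors. The TPM filter gave no value for *Mme* and *Lnpep*.

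Tumors with the same replicate number did not vary together (r of -0.19 to 0.127 over 18 pairs, -0.232 to 0.23 over 36 pairs with other numbers), so the numbers do not pair them. With the replicate block, 0, 2, 4, 3, 4, 5 and 0 genes passed in the order above.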
